A study of Rattus norvegicus with 36 samples.

Results

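The genes described here encode the enzymes that make cholesterol and fatty acids in the cell, together with the proteins that sense sterols and switch these enzymes on. They were taken by symbol from a list of 30 genes, 15 enzymes of sterol synthesis, 6 genes of sterol sensing and transport, 7 genes of fatty acid synthesis and 2 polyunsaturated fatty acid desaturases. All 30 were among the 17378 entries of the expression table. Of these, 29 reached 1 RPKM (reads per unit of gene length and of library size) in 3 or more libraries and were tested among 11544 genes. Elovl6, which lengthens saturated chains, was listed at 0 in 11 of 18 libraries and at no more than 0.03 RPKM in the others, and was not tested.

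Expression was measured by RNA-seq in colon of WT rats and of Pirc rats, which carry a mutant Apc allele and develop colon polyps and tumors. The rats ate AIN-93 control diet or SPI, the same diet with 10% w/w freeze-dried baby spinach, and tissue was taken at 30 weeks of age. WCN and WSN were normal colon of WT rats on control diet and on SPI, PCN and PSN were normal-looking colon of Pirc rats on control diet and on SPI, and PCT and PST were the colon tumors of those Pirc rats, so that tumors carry the same Apc mutation as their reference tissue. Each group held 3 libraries of poly(A)-selected RNA, described in the paper as biological replicates, and the labels do not say which tumor library came from the same rat as which normal-looking library. These are pieces of whole tissue, so a lower share of a cell type and less RNA per cell cannot be told apart.

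Cholesterol is built from acetyl-CoA through mevalonate, isoprenoid units, squalene and lanosterol. When membrane sterol is low, Scap carries the SREBP transcription factors, products of Srebf1 and Srebf2, from the endoplasmic reticulum to the Golgi, where proteases release the part that enters the nucleus. SREBP-2 acts mostly on sterol genes and SREBP-1c mostly on fatty acid genes. Insig1 and Insig2 hold Scap back when sterol is plentiful, and Insig1 is itself an SREBP target. SREBPs act together with NF-Y, which binds the sequence CCAAT, and with Sp1, which binds GC boxes. Colonic epithelium renews constantly and needs new membrane lipid.

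Promoter windows from 250 bases before to 50 bases after the start of transcription were read from RefSeq (GRCr8) for 23 of the 30 genes. They are shown because the genes are known targets of the same factors, and 6 windows of genes that moved in different ways are printed 5′ to 3′ on the gene's strand, with CCAAT or its complement ATTGG in capitals.
Idi1, chr17:66547475-66547774, minus strand: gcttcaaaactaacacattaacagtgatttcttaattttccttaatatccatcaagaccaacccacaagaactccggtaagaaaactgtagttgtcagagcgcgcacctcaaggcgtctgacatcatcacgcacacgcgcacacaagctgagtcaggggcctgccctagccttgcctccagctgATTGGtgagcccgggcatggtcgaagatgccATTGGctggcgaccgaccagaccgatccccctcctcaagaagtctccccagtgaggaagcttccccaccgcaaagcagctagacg
Msmo1, chr16:29746863-29747162, plus strand: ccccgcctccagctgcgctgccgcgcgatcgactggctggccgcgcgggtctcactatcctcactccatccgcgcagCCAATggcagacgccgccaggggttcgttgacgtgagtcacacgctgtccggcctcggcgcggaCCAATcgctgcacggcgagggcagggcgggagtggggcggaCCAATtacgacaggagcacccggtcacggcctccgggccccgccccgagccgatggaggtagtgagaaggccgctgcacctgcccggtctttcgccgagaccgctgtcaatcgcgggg
Hmgcs1, chr2:53382054-53382353, plus strand: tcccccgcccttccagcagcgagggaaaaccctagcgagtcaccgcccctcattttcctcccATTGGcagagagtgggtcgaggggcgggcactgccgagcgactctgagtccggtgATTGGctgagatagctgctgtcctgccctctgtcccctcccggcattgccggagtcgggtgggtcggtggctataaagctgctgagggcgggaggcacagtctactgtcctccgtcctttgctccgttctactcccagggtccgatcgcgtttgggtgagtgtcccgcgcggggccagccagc
Scd2, chr1:253118127-253118426, plus strand: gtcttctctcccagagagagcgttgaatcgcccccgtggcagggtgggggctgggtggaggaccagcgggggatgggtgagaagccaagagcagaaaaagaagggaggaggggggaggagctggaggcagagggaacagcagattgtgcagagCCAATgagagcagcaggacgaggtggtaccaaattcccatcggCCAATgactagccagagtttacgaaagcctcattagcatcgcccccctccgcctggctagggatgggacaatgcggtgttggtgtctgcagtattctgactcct
Insig1, chr4:8057720-8058019, minus strand: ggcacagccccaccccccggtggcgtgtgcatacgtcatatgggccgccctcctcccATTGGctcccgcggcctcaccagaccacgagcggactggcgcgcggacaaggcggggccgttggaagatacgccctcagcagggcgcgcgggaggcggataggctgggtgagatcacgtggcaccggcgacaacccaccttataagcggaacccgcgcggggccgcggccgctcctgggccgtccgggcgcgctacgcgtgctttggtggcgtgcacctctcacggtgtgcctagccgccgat
Acss2, chr3:164464453-164464752, plus strand: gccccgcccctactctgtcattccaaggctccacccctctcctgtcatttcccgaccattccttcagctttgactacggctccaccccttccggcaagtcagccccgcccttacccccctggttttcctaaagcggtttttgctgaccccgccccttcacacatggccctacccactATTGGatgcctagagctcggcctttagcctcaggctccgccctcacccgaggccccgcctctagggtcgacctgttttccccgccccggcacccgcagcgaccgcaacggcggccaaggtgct
Msmo1 held 3 matches, Idi1, Hmgcs1 and Scd2 held 2 each, and Insig1 and Acss2 held 1 each. On either strand, CCAAT was found in 17 of the 23 genes (73.9%), against 37.5% of all 33469 windows and 38.1% of the 8798 tested genes with a window. The GC box core GGGCGG was found in 19 (82.6%), against 33.1% of all windows and 62.0% of tested genes. The E-box CACGTG was found in Insig1, Sc5d and Scap (13.0%, against 6.42% and 9.1%). The sterol element spelled TCACNCCAC was found in none of the 23, against 1.12% of all windows and 1.24% of tested genes. Other spellings of that element were not searched. Pmvk, Fdft1, Sqle, Stard4, Acaca, Fasn and Elovl6 had no window in the table used.

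RPKM values hold no read totals. The depth of each library, estimated from the steps between its lowest values, lay between 0.621 and 1.523 times the median library. The summed level of 8 epithelial markers, which check the labelled tissue, was 6672 to 7503 RPKM in PCT and 7123 to 9912 in PCN. PCN library 2 stood nearer the tumors than any other normal library on the main axis of variation (1.97, against -14.18 or lower for the others and 36.13 or higher for tumors). Reads shared with pseudogenes may be split or lost, and how they were counted is not stated. The levels of Acat2, Fdps, Idi1 and Nsdhl, with 2, 5, 1 and 1 RefSeq entries named as their pseudogenes, are therefore uncertain. Pseudogenes under other names were not counted, so other members may be affected too. Hprt1, a gene used in every cell, was listed at 0 in every library, so a value of 0 in this table may be a failed estimate. Scd2 has a close paralog, Scd, with which it may share reads.

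**Figure D1:**
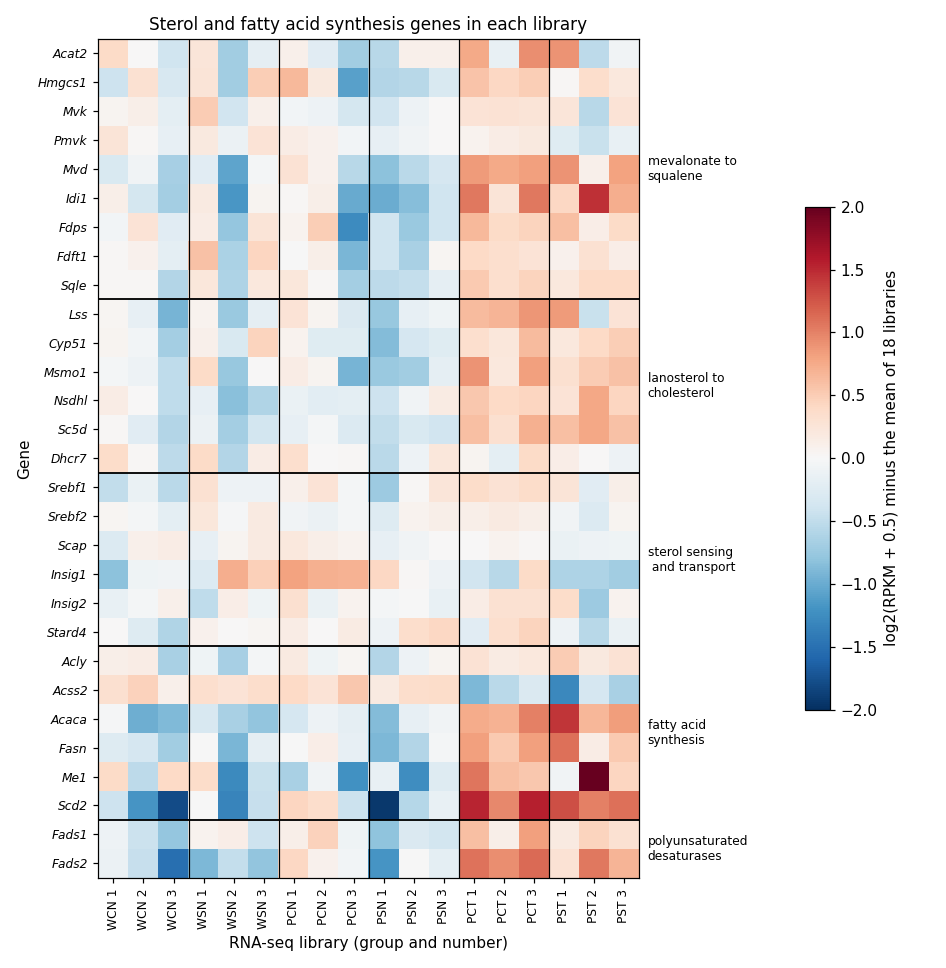
Each cell is the log2(RPKM + 0.5) of a gene (rows, by role) in an RNA-seq library (columns, by group), minus the mean of that gene over the 18 libraries; colours end at -2 and 2. Most enzyme rows are red in the 6 PCT and PST libraries, Acss2 and Insig1 are blue in most of them, and WCN 3, WSN 2, PCN 3 and PSN 1 are blue over most sterol enzymes.

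Tumors held more RNA of many of these enzymes than normal-looking colon on either diet. In PCT vs. PCN, 9 of 29 genes were higher (Mvd, Idi1, Msmo1, Nsdhl, Sc5d, Acaca, Fasn, Scd2 and Fads2) and 2 were lower (Insig1 and Acss2) at an adjusted p under 0.05 from limma. Over all genes tested, 21.0% were higher and 11.7% lower. In PST vs. PSN, 13 were higher, the same 9 with Sqle, Cyp51, Me1 and Fads1, and the same 2 were lower, against 25.9% higher and 16.5% lower of all genes tested. The median log2 fold change of the 29 genes was 0.58 in PCT vs. PCN and 0.60 in PST vs. PSN, where the median of all genes was 0.13 and 0.12. The share of the 29 genes called higher was 31.0% and 44.8%, and the share called lower 6.9% in both. For PCT vs. PCN the share called higher lay above or below that of all genes depending on the scaling and on single libraries, as given next. The tumors of both diets were each compared with their own normal-looking tissue, so these comparisons share no library.

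These counts depended on the scaling and on single libraries. Median-of-ratios scaling moved the median of all genes to 0.0069 in PCT vs. PCN and 0.0021 in PST vs. PSN, and the calls over all genes from 2427 higher and 1351 lower to 1723 and 1747, and from 2986 and 1900 to 2401 and 2441. With it, 3 of the 29 genes were higher in PCT vs. PCN (Mvd, Sc5d and Acaca), which is 10.3% against 14.9% of all genes, and with upper-quartile scaling 4 were, 13.8% against 15.9%. With median-of-ratios scaling 11 were higher (37.9%, against 20.8% of all genes) in PST vs. PSN, where Nsdhl and Me1 were lost and Pmvk and Stard4 became lower. Without PCN library 2, the one nearest the tumors, 7 were higher and 2 lower in PCT vs. PCN. Without PCN library 3 or PCT library 1 the count higher in PCT vs. PCN was 2 (6.9%, against 12.1% and 13% of all genes). Without PCT library 3 it was 3 (10.3%, against 17.2%), and without PST library 3, which enters only through the shared spread, it was 5 (17.2%, against 21%). In 13 of the 18 fits that each left out 1 library, the share called higher in PCT vs. PCN was above that of all genes, as it was in all 18 for PST vs. PSN. Without PSN library 1 the count higher in PST vs. PSN was 7 (24.1%, against 19.7%). Calls in all 18 fits that each left out 1 library were those of Sc5d, Acaca and Acss2 in PCT vs. PCN, and of Mvd, Idi1, Cyp51, Sc5d, Acaca, Fasn, Scd2 and Acss2 in PST vs. PSN.

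Marker genes of several cell types moved with the same comparisons. All 10 proliferation markers were higher in PCT vs. PCN and 8 in PST vs. PSN, with summed levels of 283.7 to 553.9 RPKM in PCT and 86.17 to 240 in PCN, and 444 to 506.2 in PST and 151.4 to 273.1 in PSN. Smooth muscle markers were lower, 7 of 8 and 8 of 8, with sums of 182.7 to 377.3 RPKM in PCT against 1348 to 3194 in PCN, and 218 to 364.8 in PST against 2992 to 4434 in PSN. Goblet cell markers fell (4 of 5 in both comparisons), as did surface colonocyte markers (5 and 4 of 7), and neutrophil markers rose (6 and 5 of 6). Of the 8 epithelial markers, 1 was higher and none lower in PCT vs. PCN, and 1 was higher and 2 lower in PST vs. PSN. The part of these cell types in the values of the lipid genes was not tested. Of 5 adipocyte markers tested, 1 was higher and 1 lower in PCT vs. PCN, and 1 higher and 0 lower in PST vs. PSN. The adipocyte markers Plin1, Lep and Retn were under 1 RPKM in every library. Of 6 hepatocyte markers, Alb, Apoa2, Ttr and Cyp7a1 were under 1 RPKM in every library, while the other 2, apolipoprotein genes that the intestine also expresses, were tested and lower in both comparisons. The sum of the 6 was 40.66 to 72.32 RPKM in PCN and 1.7 to 3.46 in PCT, and 8.77 to 210.6 in PSN and 1.66 to 4.08 in PST. The adipocyte sum was 47.27 to 86.97 in PCN and 44.97 to 67.72 in PCT, and 41.88 to 64.31 in PSN and 64.38 to 184.6 in PST.

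**Figure D2:**
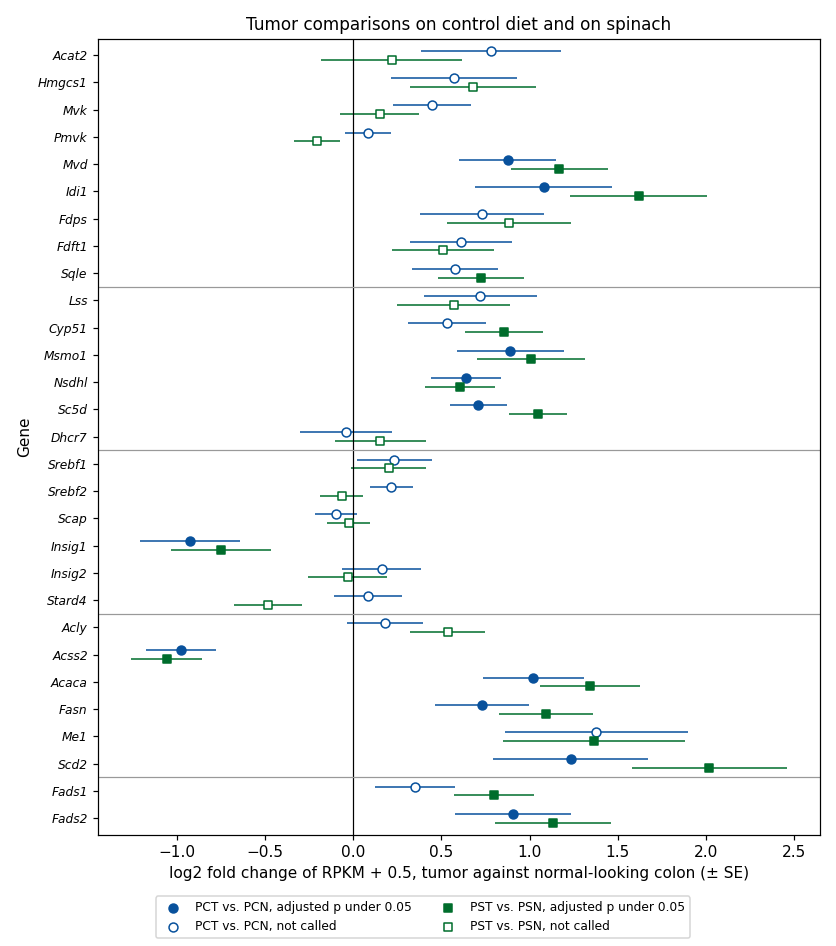
Log2 fold change of RPKM + 0.5 (x axis) of the 29 tested genes (y axis) in PCT vs. PCN (circles) and PST vs. PSN (squares), with the SE as a line and filled symbols for an adjusted p under 0.05. Scd2 reached 1.23 and 2.02, while Acss2 lay at -0.98 and -1.06.

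Mvd, which decarboxylates mevalonate pyrophosphate to the isoprenoid unit, separated tumors from normal-looking colon. Its RPKM was 25.9, 22.6 and 14.2 in the PCN libraries and 38.7, 36.2 and 37.8 in the PCT libraries. On SPI it was 11.7, 14.4 and 16.6 in PSN and 39.8, 22.8 and 37.3 in PST. Every tumor library lay above every library of its reference tissue, by a log2 fold change of 0.87 (SE 0.28, adjusted p = 0.0241 from limma) on control diet and 1.17 (SE 0.28, adjusted p = 0.00337) on SPI. Idi1, the isomerase that makes the reactive isoprenoid for chain growth, was 58.2, 62.1 and 28.0 RPKM in PCN and 119, 68.7 and 119 in PCT. It was 28.5, 31.5 and 43.1 in PSN and 76.4, 158.5 and 95.1 in PST. Its groups did not overlap on either diet, with PCN library 3 the lowest of its group and PST library 2 the highest of all 18. The log2 fold change was 1.08 (SE 0.39, adjusted p = 0.0436) in PCT vs. PCN and 1.62 (SE 0.39, adjusted p = 0.00386) in PST vs. PSN.

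Hmgcs1, which joins acetyl-CoA and acetoacetyl-CoA at the entry of the mevalonate pathway, did not pass the test. It was 175, 129 and 52.5 RPKM in PCN, which include both the highest and the lowest value of all 18 libraries, and 167, 149 and 158 in PCT. It was 74.6, 75.7 and 90.7 in PSN and 114, 144 and 129 in PST. The groups overlapped on control diet but not on SPI, and the log2 fold changes were 0.57 (SE 0.36, adjusted p = 0.237) and 0.68 (SE 0.36, adjusted p = 0.138). Sqle, squalene epoxidase, a slow step of the later pathway, was 70.1, 60.6 and 37.3 RPKM in PCN and 86.1, 75.8 and 81.7 in PCT. It was 41.3, 43.1 and 53.0 in PSN and 69.0, 78.6 and 79.4 in PST. The tumor libraries lay above the reference libraries on both diets, but the test was passed on SPI (log2 fold change 0.72, SE 0.24, adjusted p = 0.0259) and not on control diet (0.58, SE 0.24, adjusted p = 0.0804). The difference between those 2 fold changes was itself tested and was not called.

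The other genes of the early pathway were not called in either comparison. Fdps and Fdft1, which build farnesyl pyrophosphate and squalene, had log2 fold changes of 0.73 and 0.61 in PCT vs. PCN and 0.88 and 0.51 in PST vs. PSN. Mvk, mevalonate kinase, had 0.44 in PCT vs. PCN. Pmvk, the next kinase, lay near 0, at 83.9 to 96.5 RPKM in PCN and 91.9 to 99.8 in PCT, and at 78.1 to 87.7 in PSN and 63.8 to 78.8 in PST. Acat2, which forms acetoacetyl-CoA, was read at 0.50 to 2.58 RPKM over all libraries. Of the 9 genes from Acat2 to Sqle, 2 were higher in PCT vs. PCN and 3 in PST vs. PSN, and none was lower. Of all genes tested, 21.0% were higher and 11.7% lower in PCT vs. PCN, and 25.9% and 16.5% in PST vs. PSN.

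Most steps that turn lanosterol into cholesterol were higher in tumors, and Sc5d, a desaturase near the end of the pathway, had the smallest SE of the called genes. It was 44.4, 48.3 and 41.0 RPKM in PCN and 76.1, 62.7 and 81.7 in PCT. It was 35.3, 40.4 and 38.2 in PSN and 75.9, 85.6 and 75.3 in PST. Its level over the 12 normal libraries did not exceed 50.7, below the lowest tumor library. The log2 fold change was 0.71 (SE 0.16, adjusted p = 0.00429) on control diet and 1.05 (SE 0.16, adjusted p = 0.000158) on SPI. Cyp51, the demethylase of lanosterol, was 72.5, 58.1 and 58.0 RPKM in PCN and 86.5, 80.1 and 107 in PCT. It was 37.7, 54.2 and 58.3 in PSN and 80.0, 91.1 and 97.3 in PST. The groups did not overlap on either diet, and only the SPI comparison passed the test (log2 fold change 0.85, adjusted p = 0.00608, against 0.53, adjusted p = 0.0772, SE 0.22 for both), with no call for the difference between diets. With only the PCN and PCT libraries in the fit, Cyp51 was called on control diet too, and the calls of Idi1 and Msmo1 were lost.

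Msmo1, which removes the methyl groups from the sterol ring, ranged from 73.5 to 154 RPKM in PCN and from 162 to 262 in PCT, and from 83.6 to 123 in PSN and 174 to 209.5 in PST. Nsdhl, the dehydrogenase of the same reaction series, ranged from 17.5 to 18.5 in PCN and from 27.1 to 29.7 in PCT. Both were called on each diet, with log2 fold changes of 0.89 and 1.01 for Msmo1 and 0.64 and 0.60 for Nsdhl. Lss, which closes squalene epoxide to lanosterol, was 6.48 to 9.85 RPKM in PCN and 12.8 to 15.3 in PCT and was not called (log2 fold change 0.72, adjusted p = 0.0976). Dhcr7, the last reductase, overlapped between tumor and normal-looking colon on both diets, with a log2 fold change of -0.04 in PCT vs. PCN. Of these 6 genes, 3 were higher in PCT vs. PCN and 4 in PST vs. PSN, and none was lower. The shares of all genes tested were 21.0% higher and 11.7% lower in PCT vs. PCN, and 25.9% and 16.5% in PST vs. PSN.

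Neither SREBP gene was called in tumors against normal-looking colon. Srebf2, the gene of SREBP-2, was 101, 98.4 and 103 RPKM in PCN and 115, 120 and 116 in PCT. It was 88.8, 111 and 115 in PSN and 101, 88.3 and 111 in PST. The log2 fold change was 0.21 (SE 0.12, adjusted p = 0.193) on control diet, where the groups did not overlap, and -0.07 (SE 0.12, adjusted p = 0.686) on SPI, where they did. Srebf1 was 18.6, 20.9 and 16.9 RPKM in PCN and 22.5, 21.2 and 22.5 in PCT. It was 10.3, 17.6 and 20.5 in PSN and 20.7, 14.8 and 18.8 in PST. Its log2 fold changes of 0.23 and 0.20 (SE 0.21 for both, adjusted p = 0.427 and 0.469) were smaller than those of the called enzymes. Srebf1 makes SREBP-1a and SREBP-1c from different starts, which gene-level values do not separate. RNA says nothing of how much SREBP was cleaved.

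Insig1 was lower in tumors, in the opposite direction to most enzymes. It was 9.73, 9.07 and 8.94 RPKM in PCN and 3.98, 3.47 and 7.11 in PCT. It was 7.26, 5.44 and 4.94 in PSN and 3.30, 3.32 and 3.12 in PST. Every tumor library lay below every library of its reference tissue, by a log2 fold change of -0.92 (SE 0.28, adjusted p = 0.0209) and -0.75 (SE 0.28, adjusted p = 0.0427). In WT colon, however, Insig1 was 2.81, 5.0 and 5.07 RPKM in WCN, below every PCN library and overlapping PCT, and PCT vs. WCN gave 0.14 (adjusted p = 0.722). The lower call in PST vs. PSN was lost in 8 of 18 fits that left out a library and that in PCT vs. PCN in 4. Scap, Insig2 and Stard4, which carries cholesterol between membranes, were not called in either comparison, and their log2 fold changes lay between -0.48 (Stard4 in PST vs. PSN, adjusted p = 0.0551) and 0.16.

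**Figure D3:**
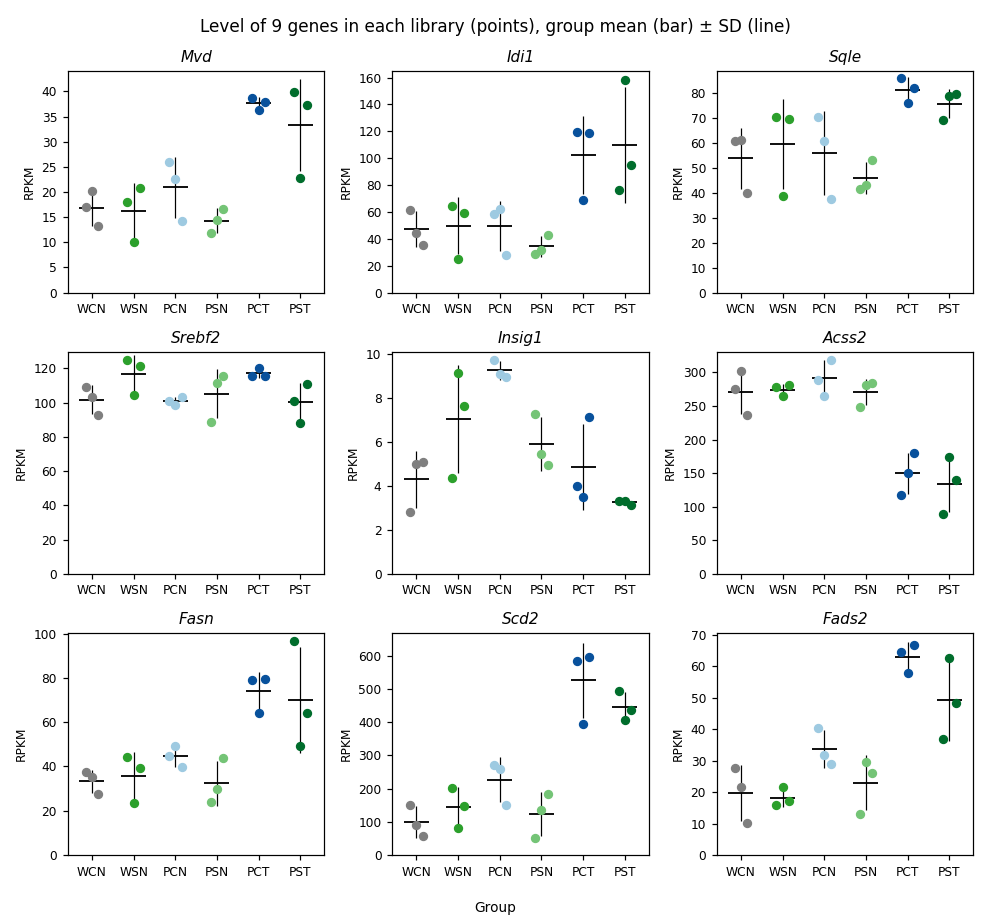
RPKM (y axes, from 0) of 9 genes in each library of the 6 groups (points), with the group mean as a bar and the SD as a line, n = 3. Within each diet, the tumor points (PCT, PST) lie above those of normal-looking colon (PCN, PSN) for Mvd, Idi1, Sqle, Fasn, Scd2 and Fads2 and below them for Acss2.

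Acss2, which makes acetyl-CoA from acetate in the cytosol, moved against most of the other enzymes. It was 289, 265 and 319 RPKM in PCN and 118, 150.4 and 180.1 in PCT. It was 248, 281 and 284 in PSN and 89.3, 174 and 140.1 in PST. All 12 normal libraries lay at 236 RPKM or more and all 6 tumors at 180.1 or less. The log2 fold change was -0.98 (SE 0.20, adjusted p = 0.00203) on control diet and -1.06 (SE 0.20, adjusted p = 0.000661) on SPI. Acly, the other cytosolic source of acetyl-CoA, which cleaves citrate, was 46.1 to 55.3 RPKM in PCN and 55.1 to 60.2 in PCT, and 32.6 to 50.8 in PSN and 56.0 to 69.5 in PST, without a call (log2 fold change 0.18 in PCT vs. PCN and 0.53 in PST vs. PSN, adjusted p = 0.0547 for the latter).

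Acaca, the carboxylase that commits acetyl-CoA to fatty acids, was low but separated the tissues. It was 2.38, 2.86 and 2.69 RPKM in PCN and 5.55, 5.34 and 6.8 in PCT. It was 1.48, 2.72 and 2.94 in PSN and 9.25, 5.21 and 5.93 in PST. Its log2 fold change was 1.02 (SE 0.28, adjusted p = 0.0128) in PCT vs. PCN and 1.34 (SE 0.28, adjusted p = 0.00154) in PST vs. PSN, which the added 0.5 understates at these levels. Fasn, fatty acid synthase, was 44.6, 49.2 and 39.8 RPKM in PCN and 79.0, 64.2 and 79.4 in PCT. It was 23.8, 29.7 and 43.6 in PSN and 96.4, 49.3 and 64.3 in PST. Its groups did not overlap on either diet. The log2 fold change was 0.73 (SE 0.26, adjusted p = 0.0446) on control diet, a call lost in 11 of 18 fits that left out a library, and 1.09 (SE 0.26, adjusted p = 0.00395) on SPI. Fasn is among the genes the study picked on these same samples, so its call is not independent evidence.

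Me1, malic enzyme, which supplies NADPH for fatty acid synthesis, had the widest spread among the called genes. It was 27.5, 41.2 and 18.4 RPKM in PCN and 90.9, 65.7 and 63.2 in PCT. It was 38.9, 17.99 and 36.1 in PSN and 41.3, 184 and 58.7 in PST. PST library 2 alone lay far above the others. The log2 fold changes were close, 1.38 (SE 0.52, adjusted p = 0.0532) and 1.37 (SE 0.52, adjusted p = 0.0450), on either side of the threshold. The call on SPI was lost in 11 of 18 fits that left out a library, PST library 2 among them.

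Scd2, a stearoyl-CoA desaturase that makes monounsaturated fatty acids, showed the largest called log2 fold change of the 29 genes. It was 272, 259 and 150.2 RPKM in PCN and 585, 395 and 596 in PCT. It was 52.5, 136 and 183 in PSN and 493, 407 and 437 in PST. All 6 tumors lay above all 12 normal libraries, by a log2 fold change of 1.23 (SE 0.44, adjusted p = 0.0416) on control diet and 2.02 (SE 0.44, adjusted p = 0.00199) on SPI. Fads2, the desaturase that starts the conversion of linoleate to longer polyunsaturated fatty acids, was 40.4, 31.9 and 28.97 RPKM in PCN and 64.6, 57.9 and 66.7 in PCT. It was 13.0, 29.7 and 26.1 in PSN and 36.8, 62.6 and 48.3 in PST. Groups did not overlap within a diet, and the log2 fold changes were 0.90 (SE 0.33, adjusted p = 0.0446) and 1.13 (SE 0.33, adjusted p = 0.0118). Fads1, the desaturase that acts later on the same chain, was 14.7, 18.7 and 12.6 RPKM in PCN and 20.6, 14.6 and 24.2 in PCT. It was 7.49, 10.9 and 10.3 in PSN and 15.3, 18.5 and 16.6 in PST. It overlapped on control diet (log2 fold change 0.35, SE 0.23, adjusted p = 0.255) and not on SPI (0.80, SE 0.23, adjusted p = 0.0106), and the difference between diets was not called.

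Tumors were next set against WT colon on control diet, a comparison that shares the PCT libraries with PCT vs. PCN. In PCT vs. WCN, 13 of 29 genes were higher and 1 was lower (24.9% and 14.5% of all genes tested). Scd2 was 152, 89.1 and 58.4 RPKM in WCN, below every PCT library (log2 fold change 2.48, adjusted p = 0.000513). Fads2 was 27.6, 21.7 and 10.2 in WCN (1.75, adjusted p = 0.000728). Fads2 was lower in each WCN library than in any PCN library, while Scd2 of WCN library 1 lay just above that of PCN library 3. Srebf1 was 12.1, 15.6 and 11.8 RPKM in WCN, below each PCT library, and was called (0.73, adjusted p = 0.0121), as was Lss (1.09, adjusted p = 0.0136). Acss2 was 275, 302 and 236 RPKM in WCN and was the gene called lower (-0.87, adjusted p = 0.00298). Mvd (1.16), Idi1 (1.10), Cyp51 (0.63), Msmo1 (0.87), Nsdhl (0.57), Sc5d (0.81), Acaca (1.45), Fasn (1.15) and Fads1 (0.95) were higher. Without WCN library 3 the count higher was 7, with Idi1, Lss, Cyp51, Msmo1, Nsdhl and Srebf1 lost, and with median-of-ratios scaling it was 9, with Idi1, Cyp51, Msmo1 and Nsdhl lost.

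No gene of the 29 was called between normal tissues. In PCN vs. WCN, limma called 0 of 29 at the adjusted threshold (0.130% of all genes, 15 in number) and 5 had an unadjusted p under 0.05 (13.4% of all genes), all higher in PCN. Of these, Insig1 was 9.73, 9.07 and 8.94 RPKM in PCN against 2.81, 5.0 and 5.07 in WCN, without overlap (log2 fold change 1.06, adjusted p = 0.170). Scd2 had 1.24 (adjusted p = 0.250), Fads2 0.85, Fads1 0.60 and Srebf1 0.50. In PSN vs. WSN, 0 of 29 were called (0% of all genes) and 1 had an unadjusted p under 0.05 (8.12%), Cyp51, at 37.7, 54.2 and 58.3 RPKM in PSN and 74.1, 55.3 and 93.4 in WSN (log2 fold change -0.56, adjusted p = 0.579).

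SPI was not followed by a called change of these genes in any tissue. In PSN vs. PCN, 23 of the 29 genes lay below 0, with a median log2 fold change of -0.25 against -0.03 for all genes. The 15 sterol enzymes varied together within groups (median pairwise r 0.63, against 0.03 for all pairs of genes tested). Counts below 0, here and in the comparisons that follow, therefore do not count independent genes. Limma called 0 of 29 (0.00866% of all genes, 1 in number), and 3 had an unadjusted p under 0.05 (5.32% of all genes). Those 3 were Scd2 (-1.002, adjusted p = 0.921), Fads1 (-0.65, adjusted p = 0.801) and Insig1 (-0.63, adjusted p = 0.934), all lower on SPI. Fads1 and Insig1 did not overlap between the groups, while Scd2 did, with PSN library 1 at 52.5 RPKM the lowest of all 18. In WSN vs. WCN, 0 of 29 were called (0% of all genes) and 1 had an unadjusted p under 0.05 (3.26%), Insig1, at 4.33, 9.12 and 7.61 RPKM in WSN, higher on SPI (log2 fold change 0.63, adjusted p = 1.00).

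The response to SPI was then compared between genotypes as an interaction, PSN vs. PCN less WSN vs. WCN. Of 29 genes, 0 were called (0% of all genes), 4 had an unadjusted p under 0.05 (5.07% of all genes) and 26 lay below 0, with a median of -0.25 against -0.08 for all genes. Those 4 were Scd2 (-1.53), Insig1 (-1.26), Fads1 (-1.02) and Srebf1 (-0.68), with adjusted p of 0.885 or more for Insig1 and Fads1. Srebf1 was 21.4, 16.1 and 15.99 RPKM in WSN and 12.1, 15.6 and 11.8 in WCN, so that SPI libraries were higher in WT colon, while PSN library 1 (10.3) lay below all PCN libraries. PSN and PCN are also the reference tissues of the tumor comparisons, so a lower PSN value enters PST vs. PSN as a larger fold change.

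No gene was called between tumors of the 2 diets. In PST vs. PCT, 0 of 29 genes were called (0% of all genes), 2 had an unadjusted p under 0.05 (7.97% of all genes) and 23 lay below 0, with a median log2 fold change of -0.19 against -0.02 for all genes. Pmvk was 73.6, 63.8 and 78.8 RPKM in PST and 91.9, 97.3 and 99.8 in PCT, without overlap (log2 fold change -0.42, adjusted p = 0.528). Stard4 was 37.9, 27.7 and 37.3 in PST and 34.8, 51.7 and 55.9 in PCT (-0.45, adjusted p = 0.564). For the difference of the tumor effect between diets, PST vs. PSN less PCT vs. PCN, 0 genes were called (0% of all genes) and 0 had an unadjusted p under 0.05 (3.95%). For Scd2 the tumor effect was 2.02 on SPI and 1.23 on control diet, and the Scd2 libraries of PST and PCT overlapped, as 407 to 493 and 395 to 596 RPKM.

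Within groups, the sterol enzymes moved together from library to library. In PCN library 3, all 15 lay below the mean of their group (mean deviation -0.43 log2 units), where 58.1% of all genes tested did. In WSN library 2 all 15 lay below (mean deviation -0.53, against 53.9% of all genes), and in WCN library 3 all 15 (mean deviation -0.33, against 53.2% of all genes). In PSN library 1, 14 lay below, and in PSN library 3 and WSN library 1 none did (60.5%, 35.2% and 42.6% of all genes). In PCT library 2, 12 lay below (mean deviation -0.18, against 43.1% of all genes). In the PST libraries 6 to 8 of the 15 lay below their means. With 3 libraries a group, deviations within a group sum to 0, so a low library raises the others.

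The library lowest in sterol enzymes was also lowest in the summed proliferation markers in WCN, WSN, PCN and PCT. The sums were 319.7, 230.4 and 210.8 RPKM in WCN, 309.4, 149.8 and 277 in WSN and 230.4, 240 and 86.17 in PCN. In PCT they were 553.9, 283.7 and 499.4, with library 2 the lowest. In PSN they were 181, 151.4 and 273.1, so library 1, lowest in sterol enzymes, was not lowest in the markers, and the same was true of PST library 2. Goblet cell markers went the other way, with the highest sum of the group in WCN library 3 (9318 RPKM), WSN library 2 (4391), PCN library 3 (6967) and PSN library 1 (9791), and surface colonocyte markers were highest in WCN library 3 (12570) and PSN library 1 (12920) but lowest in WSN library 2 (2832) and PCN library 3 (2187). In PCT library 2 the goblet cell sum was the lowest of its group (352.1). The part of any of these markers in the differences among libraries was not tested. The relative depth of WCN library 3 (1.523) and WSN library 2 (1.378) was the highest of their groups, and that of PCN library 3 (0.85) was the lowest of its group.

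**Figure D4:**
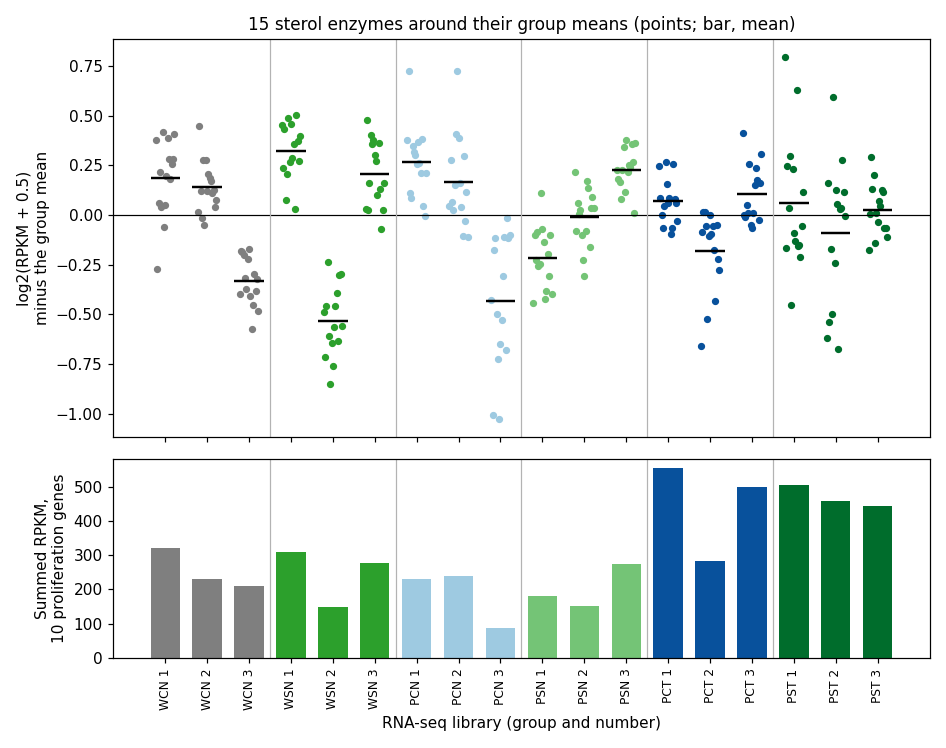
Upper panel, log2(RPKM + 0.5) of the 15 sterol enzymes (points) minus the mean of their group in each library, with the mean of the 15 as a bar. Lower panel, summed RPKM of 10 proliferation markers in the same libraries; all 15 points lie below 0 in WCN 3, WSN 2 and PCN 3, whose proliferation sums (210.8, 149.8 and 86.17) are the lowest of their groups.

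Other genes of these pathways, from lists of the same kind, showed both directions. Of 10 further sterol synthesis genes, 2 were higher and 2 lower in PCT vs. PCN, and 2 higher and 1 lower in PST vs. PSN. Lbr, a sterol reductase that also anchors the nuclear lamina, rose, at 13.9 to 28.7 RPKM in PCN and 50.6 to 72.3 in PCT (log2 fold change 1.42, and 1.64 in PST vs. PSN). Hsd17b7, a reductase of the methyl removal series, rose by 0.88 and 1.10.

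Of 10 further SREBP pathway genes, 3 were higher in PCT vs. PCN and 5 in PST vs. PSN. Mbtps2, a protease that releases SREBPs, rose by 1.12 and 0.87. Trib3, a stress-induced pseudokinase, was called higher in PST vs. PSN (1.32). Of 8 tested genes of LXR signaling and cholesterol export, 2 were higher and 1 lower in PCT vs. PCN, and 3 higher and 1 lower in PST vs. PSN. Abca1 (0.85 and 0.99) and Abcg1 (0.51 and 0.81), the exporters, rose, while Nr1h3, the gene of LXR alpha, was lower on control diet (-0.53).

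Of 10 genes of cholesterol uptake, trafficking and esters, 0 were called by limma in PCT vs. PCN, with 3 at an unadjusted p under 0.05, and 4 were higher and 1 lower in PST vs. PSN. Npc1l1, the intestinal cholesterol transporter, was 2.81 to 12.5 RPKM in PST and 0.19 to 0.70 in PSN (log2 fold change 3.05), and 2.24 to 12.02 in PCT and 0.18 to 3.87 in PCN, where its 1.62 was not called. Scarb1, a lipoprotein receptor, was 14.7 to 17.2 in PST and 7.71 to 10.3 in PSN (0.84). Of 21 tested further genes of fatty acid synthesis and its NADPH, 7 were higher and 2 lower in PCT vs. PCN, and 8 and 2 in PST vs. PSN. Scd, the paralog of Scd2, was 8.51 to 33.4 RPKM in PCT and 8.01 to 19.6 in PCN without a call (0.56), and 13.5 to 38.7 in PST and 3.03 to 5.57 in PSN with 1 (2.40). Mlxipl, the gene of the glucose-responsive factor ChREBP, fell, at 34.01 to 72.4 RPKM in PCN and 15.01 to 19.9 in PCT (-1.33, and -1.89 in PST vs. PSN). Elovl5, which lengthens polyunsaturated chains, rose (1.26 and 1.17).

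Of 15 tested genes of fatty acid activation and triglyceride synthesis, 5 were higher and 2 lower in PCT vs. PCN, and 6 higher and 3 lower in PST vs. PSN. Dgat2, which makes triglyceride and is also among the genes the study picked on these samples, rose, at 9.93 to 23.0 RPKM in PCN and 46.1 to 66.3 in PCT (log2 fold change 1.73, and 2.18 in PST vs. PSN). Acsl4, which activates arachidonate, rose by 1.204 and 1.88. Fabp2, the intestinal fatty acid carrier, fell, at 26.1 to 36.4 RPKM in PCN and 3.27 to 9.57 in PCT (-2.24, and -2.42 in PST vs. PSN). The shares called in these lists can be read against the 21.0% higher and 11.7% lower of all genes in PCT vs. PCN and the 25.9% and 16.5% in PST vs. PSN.

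Srebf2 carries the gene of miR-33 within it (miRNA at chr7:115593957-115593977 for the 5p arm and chr7:115593997-115594017 for the 3p arm, Srebf2 at chr7:115542774-115600945, plus strand, GRCr8). In mouse and human cells miR-33-5p is known to lower Abca1. The mature sequences are shown with the seed, bases 2 to 8, in capitals.
rno-miR-33-5p: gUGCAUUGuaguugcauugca
rno-miR-33-3p: cAAUGUUUccacagugcauca
The arms have different seeds. In small RNA-seq of the same 6 groups, the deposited signal (reads scaled by a factor for each library) of miR-33-5p was 4.16, 2.39 and 5.49 in PCN and 0, 3.54 and 3.50 in PCT. It was 2.64, 2.12 and 1.29 in PSN and was listed at 0 in all 3 PST libraries. In WCN it was 5.28, 5.69 and 3.74, and in WSN 0, 3.32 and 1.78. By the steps between the values of a library, these signals correspond to 0 to 6 reads, so counting error is large. On that scale the PST libraries totalled 1453261, 724954 and 4485011 reads, and the PSN libraries 5376082, 3344089 and 4029233. The part of library size in the values of 0 was not tested. The 3p arm was 4.16 to 8.79 in PCN, 8.18 to 9.81 in PCT, 2.12 to 6.86 in PSN and 3.70 to 14.7 in PST. Neither arm was called in any comparison among 494 miRNAs tested with limma. For miR-33-5p the adjusted p was 0.0675 in PST vs. PSN and 0.471 in PCT vs. PCN. With 0.1 in place of 0.5 added to the signal, the adjusted p of rno-miR-33-5p, PST vs. PSN, was 0.0473.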

How the data were processed

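The authors deposited RPKM values, reads of each gene scaled by gene length and by mapped reads, to 2 decimals, for directional paired-end libraries, and signal values for 559 miRNAs. Bowtie2 and DESeq2 are tools that the submitters' notes list, without versions. Genome build, annotation and settings: not given in the sources used here. Of 17378 entries, 26 had names turned into dates and were left out, and 2707 were 0 throughout. Pearson correlations between libraries were 0.834 to 0.982.

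Comparisons used limma 3.58.1 (R 4.3.3, statmod 1.5.0; trended prior, robust) on log2(RPKM + 0.5) for 11544 genes, in a single fit of 18 libraries with 12 residual degrees of freedom. Benjamini-Hochberg adjustment covered all genes tested, with a threshold of 0.05. The plan had a count model for miRNA counts; limma on log2(signal + 0.5) replaced it because the values are scaled. The fit was tested on simulated data. P-values rest on the spread within groups of 3 libraries, pooled over all 6 groups and moderated across genes. They do not rest on the libraries compared alone, and a permutation of 3 against 3 cannot go below 0.1. Fold changes are on the log2(value + 0.5) scale and understate low genes.

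The members, the other lists and the markers were chosen with earlier results of these data known. Values in every library are given for the 8 members with the largest called differences, the regulators Srebf1, Srebf2 and Insig1, the enzymes Hmgcs1 and Sqle, and members whose call differed between the tumor comparisons. Further genes are those with the largest called difference of their list and a group mean of 5 RPKM or more. A few of those genes are not reported here. Members shown in full beyond this, such as Sc5d and, between diets, Pmvk and Stard4, were picked after their values were seen. Motifs were counted in RefSeq windows with Python 3.11.15. Alternatives changed the pseudocount, filter, scaling, threshold and block, and left out each library.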

Additional observations from a re-analysis of the deposited data

How the results depend on the processing

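No member changed direction where it was called, under any alternative run. The count higher in PCT vs. PCN was 9 and became 5 without the filter on low values, 3 with median-of-ratios scaling, 4 with upper-quartile scaling and 1 at a threshold of 0.01, but 12 with array weights and 11 with only the groups compared in the fit, and it ranged from 2 to 12 when each library was left out. The count higher in PST vs. PSN was 13 and became 7 at 0.01, with a range of 7 to 15. In PCT vs. WCN it was 13 and became 7 at 0.01 but 16 with only the groups compared, with a range of 7 to 14. The count lower was 2 in PCT vs. PCN, 1 at 0.01, with a range of 1 to 2. In PST vs. PSN it was 2, and it was 1 without the filter, 4 with median-of-ratios scaling and 1 at 0.01, with a range of 1 to 3. Scaling moved the centre of all genes, and for the other settings the cause was not tested. The diet, genotype and interaction comparisons kept 0 calls in every alternative.

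The paper states that tumor and normal-looking colon of Pirc rats were matched by animal. The labels do not say that equal library numbers mark the same rat. Same-numbered deviations correlated at 0.0965, 0.0886 and 0.193 for PCN with PCT and at 0.128, -0.0496 and 0.0219 for PSN with PST. Differently numbered libraries were not compared, so these values cannot decide whether numbers mark rats. With the number as a replicate block, 7 were higher in PCT vs. PCN, 12 in PST vs. PSN and 13 in PCT vs. WCN. With pairs of the same number as a block, 9 and 13 were higher in the tumor comparisons, but not all the same genes. In PCT vs. PCN Sqle and Cyp51 were gained and Idi1 and Fasn lost, and in PST vs. PSN Acly was gained and Me1 lost. Low genes such as Acaca and Acat2 and the low signal of miR-33-5p are limited by depth.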
